A study of Homo sapiens with 18 samples.

Results

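The syndecans (SDC1 to SDC4) and glypicans (GPC1 to GPC6) are the 10 genes, 4 syndecans and 6 glypicans, that encode the core proteins of the main heparan sulfate proteoglycans of the cell surface. They were taken by gene symbol from the 58870 genes of the count table, and each symbol matched 1 row. This set and the gene lists used below were chosen with earlier results of these data known. Their shares set beside those of all genes are therefore descriptions only. Their mRNA was measured by RNA sequencing in 3 human melanoma cell lines, WM164, SKMel28 and A375. Each line overexpressed either MAFG, a small MAF transcription factor that binds DNA as a dimer, or GFP as the control, for which 3 libraries each, 18 altogether, were sequenced. Both proteins were delivered by lentiviral vectors with the EF1α promoter and blasticidin resistance, the MAFG protein carried a Myc-DDK tag, and all cells were grown in RPMI with 5% FBS. The sources do not say whether the 3 libraries of a condition came from separate cultures, so p-values measure the spread between these libraries, which may be technical.

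Syndecans cross the plasma membrane and end in short cytoplasmic tails that bind PDZ proteins such as syntenin, whereas glypicans are held in the outer leaflet by a glycosylphosphatidylinositol anchor. Both carry long heparan sulfate chains, which bind growth factors such as FGFs, midkine and pleiotrophin and present them to their receptors, and glypicans are also known to modulate Wnt, BMP and Hedgehog signals. The chains are built on the core protein by linker enzymes and polymerases, and the ectodomains can be shed by proteases. In melanoma, as in other tumors, these proteoglycans are known for roles in adhesion, migration and growth factor response.

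Some of the genes on which the results turn lie far apart in the genome and differ in the bases before their start sites, which are shown for this reason. The 250 bases upstream of the start site were taken from RefSeq for GRCh38.p14 and are printed from 5′ to 3′ on the strand of the gene, with a match to a searched motif in capitals. GPC4 lies on chromosome X from 133300103 to 133415489 (minus strand), GPC6 on chromosome 13 from 93226807 to 94408020 (plus strand) and SDC3 on chromosome 1 from 30869466 to 30908758 (minus strand), by GENCODE release 44 on GRCh38. The printed windows are chrX:133415490-133415739, chr13:93226557-93226806 and chr1:30908759-30909008.
GPC4: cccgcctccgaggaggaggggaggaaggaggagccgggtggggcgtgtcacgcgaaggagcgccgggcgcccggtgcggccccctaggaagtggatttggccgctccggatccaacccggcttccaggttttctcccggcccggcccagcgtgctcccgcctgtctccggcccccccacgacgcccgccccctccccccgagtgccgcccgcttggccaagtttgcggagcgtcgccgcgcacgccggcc
GPC6: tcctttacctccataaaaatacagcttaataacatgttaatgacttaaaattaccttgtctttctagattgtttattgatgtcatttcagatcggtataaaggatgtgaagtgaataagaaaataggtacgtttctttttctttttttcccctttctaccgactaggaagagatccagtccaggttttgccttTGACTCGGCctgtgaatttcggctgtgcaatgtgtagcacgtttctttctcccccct
SDC3: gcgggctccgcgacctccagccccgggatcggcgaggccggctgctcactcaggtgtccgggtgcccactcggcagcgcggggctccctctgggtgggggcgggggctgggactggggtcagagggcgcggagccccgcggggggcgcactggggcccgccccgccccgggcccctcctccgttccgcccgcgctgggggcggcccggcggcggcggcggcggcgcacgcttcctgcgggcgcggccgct
RefSeq promoters of 300 bases, with 250 before and 50 after the start, were matched for 8 of the 10 genes, in 9 windows. SDC2 and GPC3 had no matched promoter and were not searched, and SDC1 supplied the additional window. The GC content was 40.0% for GPC6, 74.7% for GPC4 and 84.0% for SDC3, against a median of 58.7% over all 35116 promoters searched. An antioxidant response element core, TGACNNNGC on either strand, was found in 1 of the 9 windows, that of GPC6, as TGACTCGGC with its first base 57 before the start, and in 13.3% of all promoters. The sequence TGCTGA, only a part of the MAF recognition element, searched on either strand, was found in 1 of the 9, that of GPC5, and in 17.3% of all promoters. The AP-1 site TGAGTCA, the E-box CACGTG and the M-box core CATGTG, on either strand, matched 0 of the 9 windows, against 4.95%, 7.26% and 11.1% of all promoters. The TGAGTCA site and the TGACNNNGC core can share bases, and the 2 matches found lay in different windows. A match here describes letters of the sequence only.

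Gene counts summed to between 20122172 and 39025042 per library, with a median of 31061375. MAFG mRNA was higher in every MAFG library than in every GFP library of the same line, by log2 fold changes of 1.04 in WM164 cells (edgeR adjusted p = 6.37e-08), 0.64 in SKMel28 (0.000128) and 0.80 in A375 cells (0.0655). In the deposited TPM the gap was wider, with means of 2.89 (GFP) and 24.5 TPM (MAFG) for WM164, 3.96 and 17.0 for SKMel28 and 4.22 and 25.2 for A375 cells. The size of the overexpression thus depends on the unit, and the cause was not tested. The test throughout was the quasi-likelihood test of edgeR, its p-values were adjusted by Benjamini-Hochberg over every gene tested, and SE is the standard error on the log2 scale. Markers checked the cell type. The summed level of 8 melanocyte lineage genes was 739 to 1386 TPM in the WM164 and 1612 to 2187 TPM in the SKMel28 libraries, but 12.2 to 48.6 TPM in the A375 libraries, in which the defining genes MLANA, TYR and DCT were at 0 TPM. In WM164 cells 5 of 7 tested lineage genes passed the test, all lower with MAFG, among them MLANA (-2.41), DCT (-1.64) and PMEL (-1.46, log2 fold changes). Of all tested genes 31.8% passed in either direction. In SKMel28 cells 2 of 8 passed higher and 3 lower, against 29.9% of all genes. Here 0 of the 8 changed more than 2-fold at that threshold by edgeR or DESeq2, with 5 at an unadjusted p under 0.05 by either tool (median -0.02). Among markers of other cell types, the summed TPM of 3 endothelial and of 3 leukocyte genes was at most 0.670 in any library. The sum of 4 keratinocyte genes was 6.06 to 65.9 TPM, nearly all of it KRT10, while KRT1, KRT5 and KRT14 were below 1 TPM in each library. The sum of 4 fibroblast genes was 0.390 to 12.7 TPM, with LUM the main part in WM164 and SKMel28 cells. KRT10 fell in WM164 cells (-0.61, edgeR adjusted p = 0.00244), and LUM fell in WM164 (-0.997, edgeR adjusted p = 3.42e-07) and rose in SKMel28 cells (0.77, edgeR adjusted p = 5.15e-05). The part of these markers in the results was not tested. The lineage regulator MITF had log2 fold changes of -0.65 (WM164), -0.20 (SKMel28) and -0.07 (A375 cells) (edgeR adjusted p = 1.55e-08, 0.00967 and 0.997), and the receptor kinase AXL, a marker of dedifferentiated melanoma, had 3.13, 5.25 and -0.11 (edgeR adjusted p = 1.35e-11, 5.28e-12 and 0.997).

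In WM164 and SKMel28 cells, SDC3 made up most of the syndecan and glypican mRNA, and in A375 cells it was nearly absent. Levels of different genes are compared here in TPM, a scale that accounts for gene length, as deposited. SDC3, the syndecan best known from the nervous system, was 69.6% ± 0.55 (SD, n = 3 libraries) of the summed TPM of the 10 genes in WM164 cells with GFP and 79.6% ± 0.77 in SKMel28 cells with GFP, but 0.507% ± 0.02 in A375 cells with GFP. In A375 cells with GFP, SDC1, the syndecan typical of epithelia, was 46.5% ± 4.99 of the sum, SDC2 was 20.9% ± 4.30, and SDC4, a component of focal adhesions, was 13.2% ± 1.89. Among the glypicans, GPC1 had the highest TPM in all 3 lines with GFP, 61.6% ± 3.39 of the glypican sum in WM164, 55.7% ± 1.65 in SKMel28 and, for A375 cells, 63.4% ± 6.21. GPC6 came second, with 29.7% ± 2.82, 38.8% ± 1.48 and 22.3% ± 6.10.

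**Figure D1:**
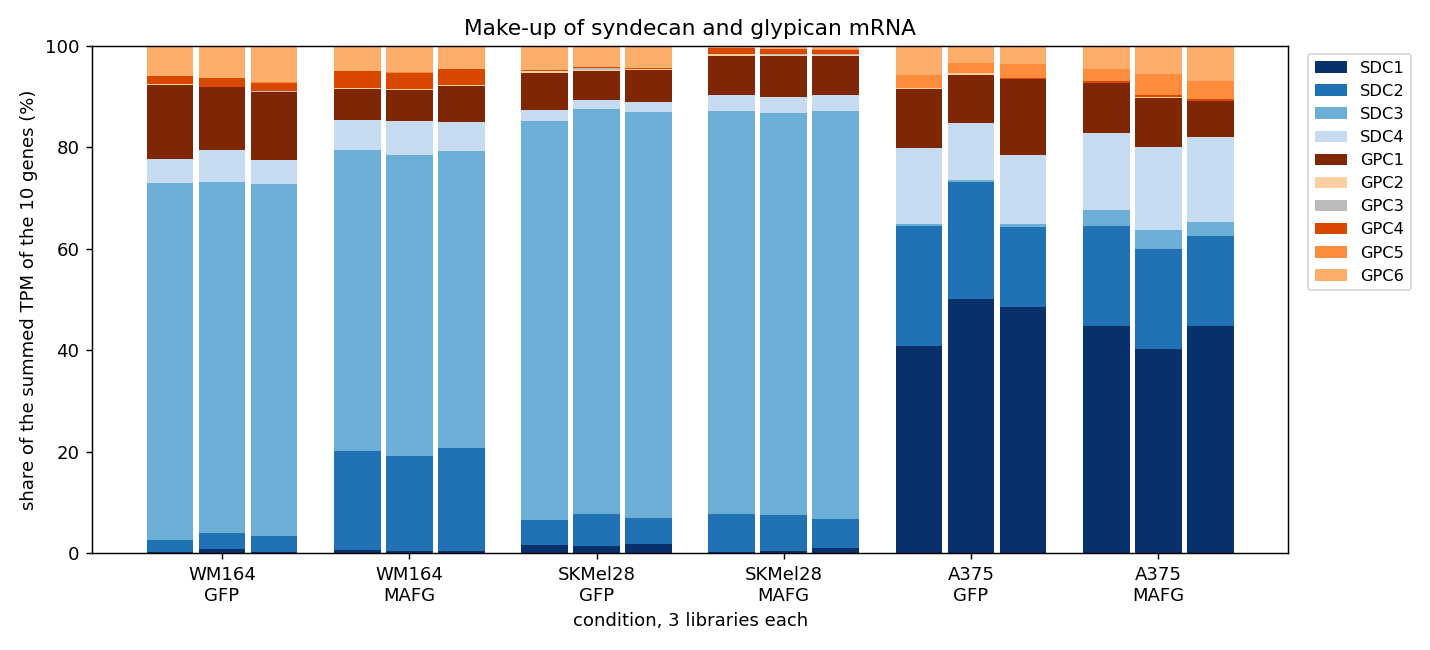
Stacked bars give the share of each gene (%, y axis) in the summed TPM of the 10 genes for each of the 18 libraries, by condition (x axis), with syndecans in blue, most glypicans in brown to orange and GPC3 in grey. SDC3 fills 58.6% to 80.5% of every WM164 and SKMel28 bar and at most 3.68% of an A375 bar, and the SDC2 section of WM164 cells is larger with MAFG.

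With MAFG, the summed TPM of the 10 genes was 160 ± 8.45 in WM164 cells, against 107 ± 7.71 with GFP, and the libraries did not overlap. In SKMel28 cells the sum was 139 ± 4.07 with MAFG and 203 ± 8.20 with GFP, also without overlap, and in A375 cells it was 47.4 ± 4.84 and 54.4 ± 4.46, with overlapping libraries. These sums were not tested. On the log2(TPM + 1) scale, the median log2 fold change of all genes was 0.137 for WM164 and -0.143 for SKMel28 cells. For A375 cells it was -0.103. Each median has the direction of the sum, and the sums were not corrected for it. By counts, SDC3, the largest part of the WM164 and SKMel28 sums, had log2 fold changes of 0.15 and -0.37. Its mean TPM went from 74.7 to 94.3 and from 161 to 111. The share of SDC3 was 59.0% ± 0.40 with MAFG in WM164 cells, 79.7% ± 0.66 in SKMel28 cells and 3.20% ± 0.43 in A375 cells.

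Levels of 1 gene between conditions are given in CPM, counts scaled to library size by TMM over all 18 libraries. In cells with GFP, the lines were compared in the edgeR model of all 18 libraries, by a more than 2-fold change with an adjusted p up to 0.05. Of 9 tested genes, 5 differed between WM164 and SKMel28 cells, 7 between WM164 and A375 and 6 between SKMel28 and A375, where 28.7%, 46.7% and 43.8% of all 18767 tested genes did. With at least 10 counts required in every library, the first and the last of these counts were 3 each. SDC3 stood at 702 ± 42.2 CPM (SD, n = 3 libraries) in WM164, 1037 ± 15.1 in SKMel28 but 1.81 ± 0.06 in A375 cells with GFP, log2 differences from A375 of 8.60 and 9.16 (SE 0.15 and 0.15, edgeR adjusted p = 1.89e-20 and 7.35e-21). SDC1 ran the other way, from 1.62 ± 0.24 CPM in WM164 and 7.46 ± 0.86 in SKMel28 to 64.6 ± 5.72 in A375 cells, log2 differences from A375 of -5.31 and -3.11 (edgeR adjusted p = 7e-15 and 3.27e-12). GPC4, a glypican known from stem cells and astrocytes, fell into the order 15.02 ± 0.67 CPM in WM164 cells, then 3.01 ± 0.22 in SKMel28 and 0.238 ± 0.28 in A375 cells, and each step passed the same edgeR test, with log2 differences of 2.31 and 3.62 (adjusted p = 1.14e-07 and 3.51e-08). GPC6 was at 73.0 ± 4.42 and 57.8 ± 0.38 CPM in WM164 and SKMel28 and at 16.1 ± 0.83 CPM in A375 cells. The log2 difference between WM164 and SKMel28 cells of 0.34 passed for GPC6 (edgeR adjusted p = 0.00886), but turned to -0.33 on the log2(TPM + 1) scale. SDC2 was lowest in WM164 cells, at 12.0 ± 0.99 CPM against 27.8 ± 1.28 in SKMel28 and 28.0 ± 1.33 in A375 cells, whose libraries overlapped. SDC4 was lowest in SKMel28 cells, at 12.2 ± 1.45 CPM against 25.5 ± 3.75 in WM164 and 22.5 ± 2.41 in A375 cells, the latter again with overlapping libraries. GPC1 ran from 45.5 ± 6.45 in WM164 through 32.9 ± 2.52 in SKMel28 to 17.7 ± 3.86 CPM in A375 cells. The log2 difference of GPC1 between WM164 and SKMel28 cells was 0.47 (edgeR adjusted p = 0.00988). It missed the threshold on the log2(TPM + 1) scale (0.14, adjusted p = 0.413, limma) and without the first WM164 library (edgeR adjusted p = 0.0772).

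GPC5, the gene next to GPC6 on chromosome 13 with 353124 bases between them, was found mainly in A375 cells. It had 79, 90 and 112 counts in the A375 libraries with GFP and 0 counts in the 3 SKMel28 libraries with GFP, so that its level of 2.54 ± 0.54 CPM in A375 cells was at least 17.2-fold higher, against a floor of 3 counts per library (0.148 CPM in the shallowest library). In WM164 cells with GFP it had 4 to 10 counts. Their mean was 1.79-fold the same floor, and the lowest library, at 0.143 CPM, lay below it. The place of GPC5 among the 5 genes that differed between WM164 and SKMel28 cells thus rests on few counts. GPC3, a fetal glypican that is re-expressed in liver cancer and lies 120255 bases from GPC4 on chromosome X, had 0 counts in all 6 A375 libraries, which allows up to 0.0837 CPM, and at most 13 counts in any other library. GPC2, a glypican of the developing nervous system, ranged from 0 to 1.502 CPM over the 18 libraries. Its difference between SKMel28 and A375 cells with GFP (log2 difference 2.37, edgeR adjusted p = 0.023) rested on 20 to 38 against 0 to 17 counts, and missed the threshold without the first or the third A375 library or the first SKMel28 library (adjusted p from 0.0596 to 0.0668). These floors cover counting error only.

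**Figure D2:**
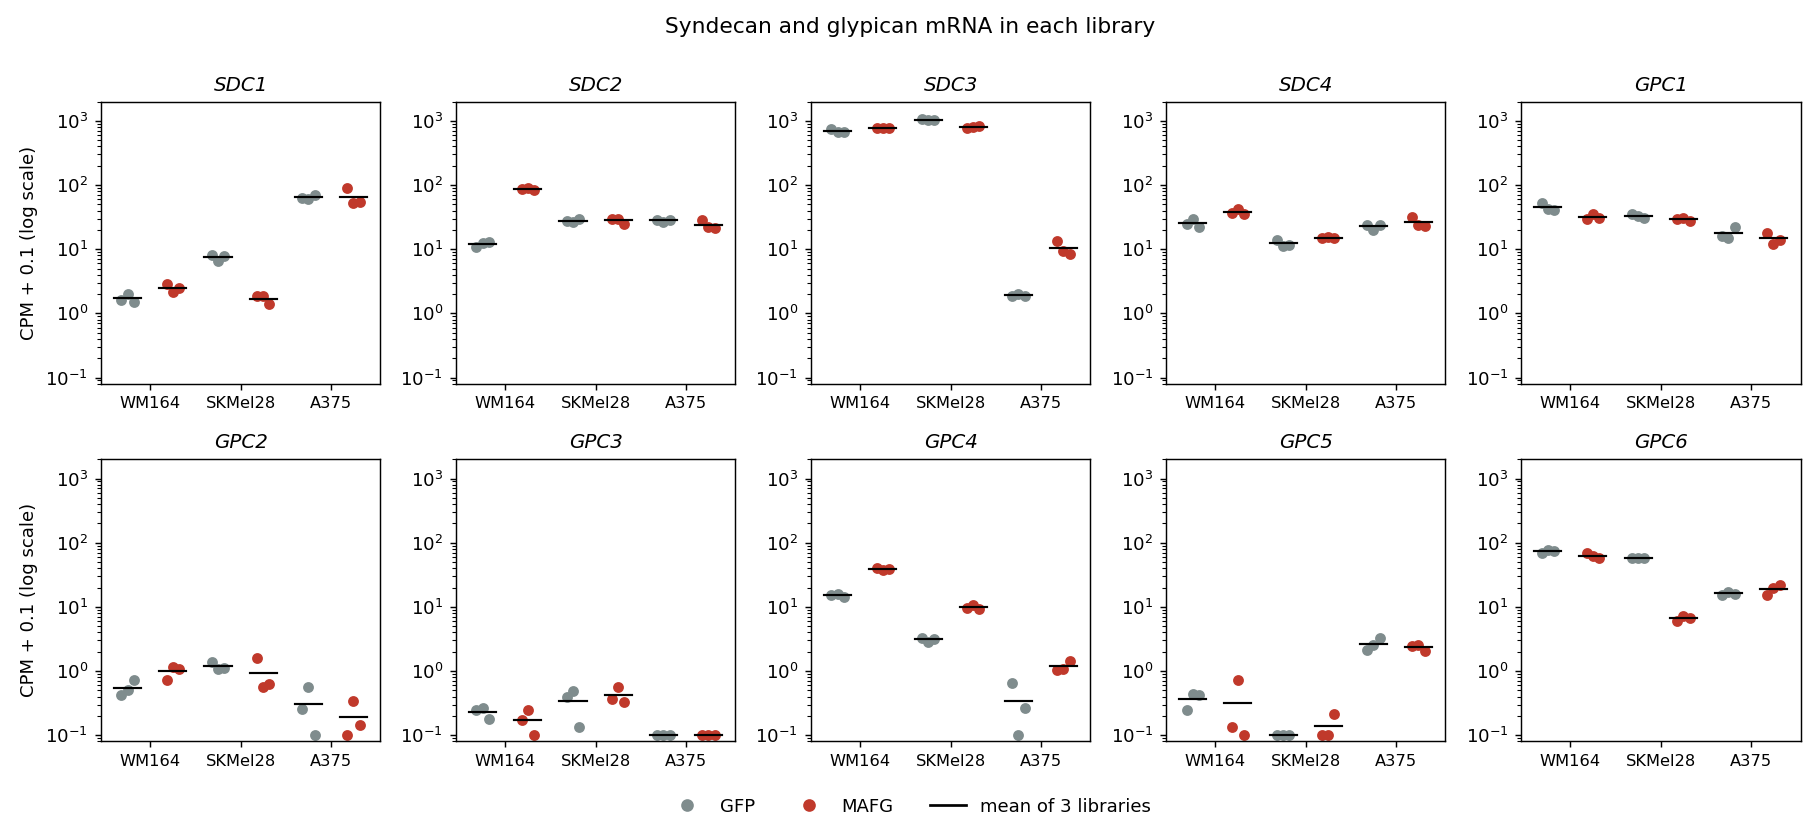
Each panel shows 1 gene, with the level in CPM + 0.1 on a log scale (y axis) for the 3 libraries of each condition (points, grey for GFP and red for MAFG) and their mean (black line) in WM164, SKMel28 and A375 cells (x axis). GPC4 is higher with MAFG in each line without overlap, SDC2 is higher in WM164 cells, from 10.8 to 12.7 up to 84.7 to 90.4 CPM, and GPC6 drops in SKMel28 cells from 57.4 to 58.2 down to 5.97 to 7.17 CPM.

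In WM164 cells, SDC2 and GPC4 rose more than 2-fold with MAFG overexpression. In these bulk libraries, a change of RNA per cell and a change in the number of cells that express a gene cannot be told apart. Of the 10 genes, 8 had enough counts to be tested in this line and GPC3 and GPC5 did not. An adjusted p of 0.05 or less was reached by 6 of the 8, where 31.8% of all 15919 tested genes reached it, and 2 of the 8, both higher, also changed more than 2-fold, against 6.94% of all tested genes in either direction and 4.94% higher. The 8 genes had a median log2 fold change of 0.57, beside 0.00 over all genes, and the 2 conditions stood apart, with no overlap of libraries, in 7 of the 8, as did 43.4% of all genes.

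SDC2, a syndecan of mesenchymal and endothelial cells (chromosome 8 from 96493813 to 96611790, plus strand), was at 10.8, 12.3 and 12.7 CPM in the 3 WM164 libraries with GFP and at 85.6, 90.4 and 84.7 CPM with MAFG. The MAFG libraries stood far above the GFP libraries, a log2 fold change of 2.86 (SE 0.08, edgeR adjusted p = 1.19e-14). With GFP, WM164 cells had the lowest SDC2 level of the 6 conditions, and with MAFG the highest, and in neither case did the libraries overlap with those of the next condition. Its share of the syndecan TPM was 3.72% ± 0.51 with GFP and 22.9% ± 0.84 with MAFG.

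GPC4 was at 15.3, 15.5 and 14.3 CPM with GFP and at 40.0, 37.6 and 38.1 CPM with MAFG in WM164 cells. This was a log2 fold change of 1.36 (SE 0.08, edgeR adjusted p = 4.05e-10), and its share of the glypican TPM went from 7.37% ± 0.69 to 21.0% ± 1.03. Smaller changes passed the test for 4 genes. SDC4 rose by 0.58 on the log2 scale (SE 0.10, edgeR adjusted p = 0.000191), from 25.5 ± 3.75 to 38.3 ± 3.51 CPM. GPC1, the glypican first known as a co-receptor of FGF2 in cancer cells, fell by 0.52 (SE 0.10, edgeR adjusted p = 0.00047), from 45.5 ± 6.45 to 31.8 ± 3.17 CPM.

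The other changes in WM164 cells that passed were slight. SDC3 was at 751, 682 and 674 CPM with GFP and at 776, 785 and 773 CPM with MAFG, a log2 fold change of 0.15 (edgeR adjusted p = 0.047), which missed the threshold when any 1 library other than the first GFP library was left out (adjusted p from 0.102 to 0.203), and with the spread estimated over all 18 libraries (adjusted p = 0.389). GPC6 had a log2 fold change of -0.22 (edgeR adjusted p = 0.023). It missed the threshold without the second GFP, the third GFP, the second MAFG or the third MAFG library (adjusted p from 0.0677 to 0.0947) or with the spread of all 18 libraries (adjusted p = 0.175), and it turned to 0.16 on the log2(TPM + 1) scale, where the median of all genes was itself at 0.14. SDC1, at 1.54, 1.89 and 1.42 CPM with GFP and 2.80, 2.03 and 2.38 CPM with MAFG, had a log2 fold change of 0.57 (SE 0.28) and GPC2 one of 0.98 (SE 0.48), and neither passed (edgeR adjusted p = 0.135 and 0.132).

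In SKMel28 cells, GPC6 and SDC1 fell and GPC4 rose with MAFG overexpression. Of the 10 genes, 8 were tested, again without GPC3 and GPC5, and 4 reached an adjusted p of 0.05 or less, where 29.9% of all 15523 tested genes did. More than 2-fold changes were found for 3 of the 8, with 1 higher and 2 lower, against 4.74% of all tested genes (1.76% higher and 2.98% lower). The median of the 8 genes was -0.27 on the log2 scale, beside -0.01 over all genes, and the libraries did not overlap for 5 of the 8, as for 43.0% of all genes.

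GPC6, a glypican needed for growth of the long bones, was at 57.8, 58.2 and 57.4 CPM in the SKMel28 libraries with GFP and at 5.97, 7.17 and 6.68 CPM with MAFG. The replicates of each condition lay close together, and the log2 fold change was -3.13 (SE 0.09, edgeR adjusted p = 1.34e-12). The upstream window of this gene is the one printed above with TGACTCGGC in capitals. Its core was found in 13.3% of all promoters, and a part of it in the fall of GPC6 was not tested. The share of GPC6 in the glypican TPM went from 38.8% ± 1.48 to 5.75% ± 1.16, and that of GPC1, at 32.9 ± 2.52 CPM with GFP and 29.1 ± 1.84 with MAFG, went from 55.7% ± 1.65 to 80.0% ± 0.90. GPC6 shares 511 exon bases with an antisense RNA that had 170 counts over the 18 libraries, against 20767 for GPC6, and the sources differ on whether the libraries kept strand.

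SDC1 was at 8.16, 6.50 and 7.73 CPM with GFP and at 1.77, 1.76 and 1.28 CPM with MAFG in SKMel28 cells, each MAFG library below each GFP library. Its log2 fold change was -2.22 (SE 0.21, edgeR adjusted p = 8.93e-07), on 132 to 245 counts per library with GFP and 34 to 53 with MAFG. GPC4 was at 3.17, 2.76 and 3.11 CPM with GFP and at 9.41, 10.7 and 9.16 CPM with MAFG, a log2 fold change of 1.69 (SE 0.16, edgeR adjusted p = 1.16e-06). On the log2(TPM + 1) scale, which understates changes of low genes, it was 0.70 and stayed below 2-fold (limma). Its share of the glypican TPM went from 2.17% ± 0.17 to 10.5% ± 0.74.

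SDC3, the most abundant of the 10 genes in this line, fell by 0.37 on the log2 scale (SE 0.05, edgeR adjusted p = 8e-05). It was at 1054, 1024 and 1034 CPM with GFP and at 783, 802.5 and 823 CPM with MAFG. SDC2 was at 27.4, 26.8 and 29.3 CPM with GFP and at 29.5, 30.0 and 24.3 CPM with MAFG. Its log2 fold change was 0.01, with a nominal 95% interval from -0.17 to 0.19. SDC4, GPC1 and GPC2 had log2 fold changes of 0.30, -0.18 and -0.37 and did not pass the threshold (edgeR adjusted p = 0.0627, 0.132 and 0.614).

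**Figure D3:**
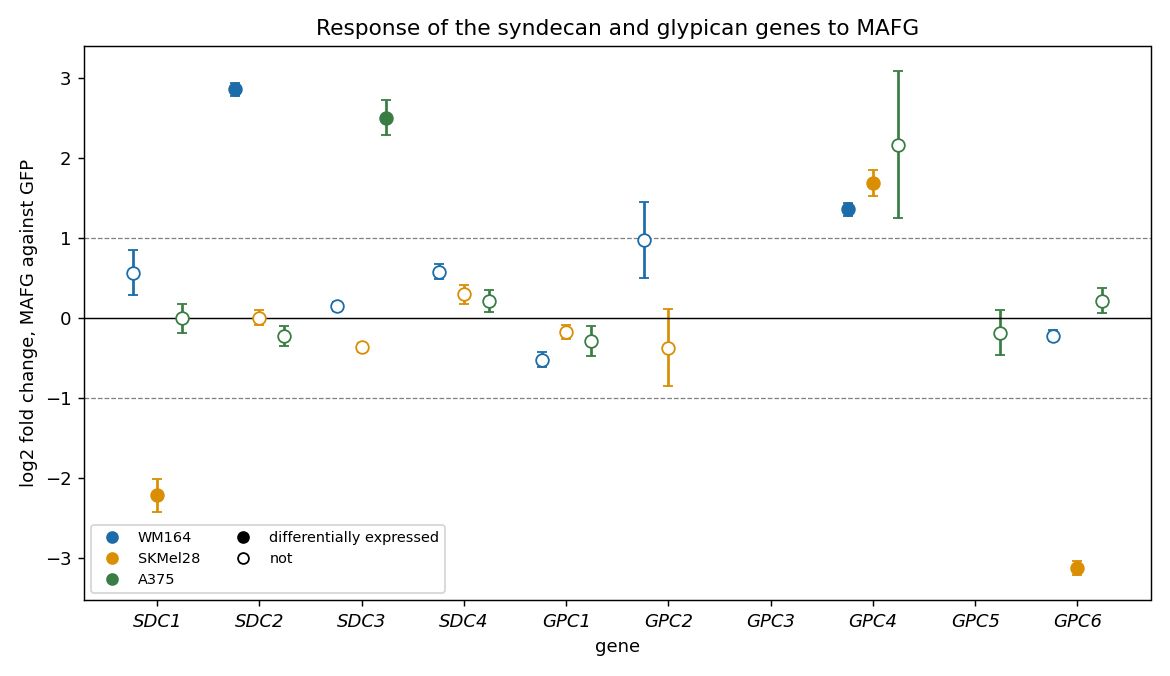
Log2 fold changes of MAFG against GFP (y axis) are plotted for each gene (x axis) in WM164 (blue), SKMel28 (yellow) and A375 cells (green), with the standard error from edgeR as bars, filled points for genes changed above 2-fold with an adjusted p up to 0.05, and dashed lines at 2-fold. The 6 filled points are SDC2 (2.86) and GPC4 (1.36) in WM164, GPC6 (-3.13), SDC1 (-2.22) and GPC4 (1.69) in SKMel28 and SDC3 (2.51) in A375 cells.

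In A375 cells, SDC3 was the 1 gene of the 10 that passed the test, and it rose. Here 8 genes were tested and GPC2 and GPC3 were not, and 0.843% of all 15779 tested genes reached an adjusted p of 0.05 or less and 0.665% also changed more than 2-fold (0.646% higher and 0.0190% lower). The median of the 8 genes was 0.10 on the log2 scale, beside 0.00 over all genes, and the libraries did not overlap for 2 of the 8, SDC3 and GPC4, as for 12.8% of all genes. SDC3 was at 1.77, 1.875 and 1.785 CPM with GFP, on 64 to 69 counts, and at 13.45, 9.41 and 8.35 CPM with MAFG, on 355 to 532 counts. The log2 fold change was 2.51 (SE 0.22, edgeR adjusted p = 0.000238), and the deposited TPM, as log2(TPM + 1) or log2(TPM + 0.1), gave 0.98 or 2.10 and missed the threshold (adjusted p = 0.139 and 0.206, limma). With MAFG, SDC3 reached 10.4 ± 2.69 CPM in A375 cells, still far below the 702 ± 42.2 CPM of WM164 cells with GFP.

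SOX10, the neural crest and melanocyte regulator, rose beside SDC3 in A375 cells. The summed level of the 8 melanocyte lineage genes was 12.2 to 13.1 TPM with GFP and 37.0 to 48.6 TPM with MAFG, of which SOX10 made up 2.24 to 3.22 and 29.3 to 34.0 TPM. MLANA, TYR and DCT were at 0 TPM in all 6 libraries. Of the list, 4 genes were tested and 1 passed by edgeR (2 by DESeq2), SOX10, with 266, 300 and 411 counts with GFP and 5630, 3855 and 4208 with MAFG (log2 fold change 3.68, edgeR adjusted p = 2.12e-05). MITF, TYRP1 and S100B had log2 fold changes of -0.07, -0.33 and 3.52 (edgeR adjusted p = 0.997, 0.997 and 0.0998), the last on 1 to 48 counts per library. The part of SOX10 in the rise of SDC3 was not tested.

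GPC4 had 21, 0 and 6 counts in the A375 libraries with GFP and 37, 37 and 58 counts with MAFG, or 0.547, 0 and 0.167 CPM and 0.935, 0.980 and 1.35 CPM. All MAFG libraries lay above all GFP libraries, but the GFP libraries differed widely. The log2 fold change of 2.17 (nominal 95% interval from 0.36 to 3.98) did not pass in this line alone (edgeR adjusted p = 0.743). It passed with the spread estimated over all 18 libraries (2.15, edgeR adjusted p = 0.00374). SDC1, the most abundant of the 10 genes in A375 cells, was at 62.9, 60.02 and 71.0 CPM with GFP and at 89.8, 51.8 and 53.4 CPM with MAFG, with the first MAFG library above and the others below all GFP libraries. Its log2 fold change was -0.01, with a nominal 95% interval from -0.36 to 0.35, and it was -0.28 without the first MAFG library (edgeR adjusted p = 0.168). SDC2, SDC4, GPC1, GPC5 and GPC6 had log2 fold changes from -0.29 to 0.22 with overlapping libraries, and their adjusted p was 0.926 or more (edgeR).

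The responses of the lines were compared as differences of log2 fold changes in 1 edgeR model of all 18 libraries, in which 9 of the 10 genes were tested. SDC2, SDC1 and GPC6 differed between WM164 and SKMel28 cells by more than 2-fold at an adjusted p of 0.05 or less, 3 of 9 genes against 5.10% of all 18767 tested genes. The differences were 2.86 for SDC2 (SE 0.15, adjusted p = 5.89e-11), 2.79 for SDC1 (SE 0.34, adjusted p = 6.5e-06) and 2.91 for GPC6 (SE 0.16, edgeR adjusted p = 6.01e-11). SDC3, which rose slightly in WM164 and fell in SKMel28 cells, differed by 0.52 (SE 0.14, edgeR adjusted p = 0.0172). Between WM164 and A375 cells 2 of 9 differed, against 4.39% of all genes, and between SKMel28 and A375 cells 3 of 9, against 4.20%. SDC2 rose more in WM164 than in A375 cells by 3.08, and the response of SDC3 was lower in WM164 than in A375 cells by a difference of -2.37 and lower in SKMel28 than in A375 cells by -2.89. The responses of SDC1 and GPC6 in SKMel28 cells lay below those in A375 cells by -2.23 and -3.34.

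For GPC4, which rose in both WM164 and SKMel28 cells, no difference of the responses was detected. The difference was -0.33, with a nominal 95% interval from -0.99 to 0.33 (edgeR adjusted p = 0.626). On the log2(TPM + 1) scale it was 0.44 (adjusted p = 0.0347, limma). The order of the GPC4 levels was the same as that of the lines, with WM164 above SKMel28 and SKMel28 above A375 cells in either condition, and no neighbouring conditions in the order overlapped. SKMel28 cells with MAFG, at 9.74 ± 0.80 CPM, stayed below WM164 cells with GFP, at 15.02 ± 0.67 CPM.

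Among the enzymes that build heparan sulfate chains, XYLT1 was by edgeR the 1 gene that passed with a more than 2-fold change, in WM164 and in A375 cells. For this and the following lists, 31.8% (WM164), 29.9% (SKMel28) and 0.843% (A375 cells) of all tested genes passed in either direction. A more than 2-fold change as well was found for 6.94%, 4.74% and 0.665% of them. Of 7 chain linker enzymes, all tested in each line, XYLT1, a xylosyltransferase that starts the chain on the core protein, rose from 12.6 ± 0.34 to 33.9 ± 3.06 CPM in WM164 cells (log2 fold change 1.43, edgeR adjusted p = 9.69e-10). In A375 cells it went from 3 to 29 counts per library with GFP to 144 to 195 counts with MAFG (log2 fold change 3.56, edgeR adjusted p = 0.0229). In WM164 cells 2 of the 7 enzymes passed higher and 1 lower, in SKMel28 cells 0 higher and 1 lower, and in A375 cells 1 higher and 0 lower, with median log2 fold changes of 0.03, -0.05 and 0.08. Of the 5 polymerases, 1 passed higher and 0 lower in WM164, 1 higher and 2 lower in SKMel28 and 0 in A375 cells (edgeR), where 1 of the 5 had an unadjusted p under 0.05 by edgeR as by DESeq2. More than 2-fold changes that passed were found for 0 of the polymerases in the 3 lines by either tool (median log2 fold changes 0.02, -0.15 and 0.11). The polymerase EXTL1 had a log2 fold change of 3.68 in A375 cells and did not pass (edgeR adjusted p = 0.35). It had 0 to 4 counts per library with GFP and 14 to 25 with MAFG.

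Among 10 other heparan sulfate proteoglycans, NRP1 and SPOCK1 rose more than 2-fold in WM164 cells, and SPOCK1 and COL18A1 fell in SKMel28 cells. In WM164 cells 4 of 9 tested genes passed higher and 0 lower, and in SKMel28 cells 2 of 8 passed higher and 4 lower, with medians of 0.32 and -0.23. In A375 cells 0 of 8 passed by edgeR and 1 by DESeq2, with 3 at an unadjusted p under 0.05 by either tool (median 0.20). NRP1, a receptor of semaphorins and VEGF that can carry a heparan sulfate chain, rose from 4.60 ± 0.29 to 49.98 ± 1.04 CPM in WM164 cells (log2 fold change 3.44, edgeR adjusted p = 7.92e-15). SPOCK1, a secreted testican, rose in WM164 cells (1.55, edgeR adjusted p = 3.19e-10) and fell in SKMel28 cells (-1.02, edgeR adjusted p = 0.00364). COL18A1, the collagen that yields endostatin, fell in SKMel28 cells, from 2.96 ± 0.51 to 1.41 ± 0.42 CPM (-1.07, edgeR adjusted p = 0.0117).

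Among 10 genes of shedding and release, MMP2, a matrix protease, rose more than 2-fold in SKMel28 cells, from 3.81 ± 0.42 to 19.2 ± 0.92 CPM (log2 fold change 2.33, edgeR adjusted p = 2.76e-09), and in A375 cells, from 12.4 ± 0.21 to 49.4 ± 10.3 CPM (1.99, edgeR adjusted p = 6.65e-05). In this list 2 of 7 tested genes passed higher and 1 lower in WM164, 1 of 5 higher and 2 lower in SKMel28 and 1 of 6 higher and 0 lower in A375 cells (medians 0.31, -0.36 and 0.36). Among 12 syndecan partners, SDCBP, which encodes the syndecan-binding protein syntenin, fell in WM164 cells from 296 ± 16.0 to 123 ± 3.02 CPM (-1.27, edgeR adjusted p = 8.54e-12). ITGB3, the integrin β3 chain that works with SDC1, rose in A375 cells from 0 to 23 counts per library with GFP to 335 to 485 with MAFG (5.03, edgeR adjusted p = 0.0026). Of the partners 4 of 11 tested passed higher and 2 lower in WM164, 4 of 12 higher and 5 lower in SKMel28 and 1 of 12 higher and 0 lower in A375 cells (medians 0.06, 0.08 and 0.08).

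The largest of the lists held 23 ligands and receptors that bind heparan sulfate. In WM164 cells 10 of 21 tested genes passed higher and 3 lower, and 8 and 2 of them changed more than 2-fold, with a median log2 fold change of 0.34. Of all tested genes, 4.94% were more than 2-fold higher. Among the 8, HGF had 0 counts with GFP and 34 to 50 per library with MAFG, and FGFR3 0 to 2 and 11 to 17. With limma 13 of the list were tested. On the log2(TPM + 1) scale 3 changed more than 2-fold higher and 0 lower, and on log2(TPM + 0.1) 4 and 1. PTN and MDK, the heparin-binding growth factors pleiotrophin and midkine, went from 0.873 ± 0.30 to 24.9 ± 0.40 CPM (4.82, edgeR adjusted p = 2.19e-13) and from 3.52 ± 1.24 to 31.0 ± 0.78 CPM (3.12, edgeR adjusted p = 4.82e-11). PTPRF, a phosphatase of the LAR family, whose members bind heparan sulfate, rose by 1.06 (edgeR adjusted p = 4.66e-10). In SKMel28 cells 4 of 15 passed higher and 7 lower (median -0.48). Of these, 2 and 4 changed more than 2-fold, against 1.76% and 2.98% of all tested genes. MET, the receptor of HGF, fell there from 65.5 ± 1.47 to 20.5 ± 0.47 CPM (-1.68, edgeR adjusted p = 7.54e-11). MET fell in WM164 cells as well, from 10.3 ± 0.78 to 4.20 ± 0.19 CPM (-1.30, edgeR adjusted p = 6.78e-07). FGF5 fell in SKMel28 cells (-2.71, edgeR adjusted p = 3.29e-06) and FGF2 rose there (1.86, edgeR adjusted p = 9.43e-05), from 1.08 ± 0.16 to 3.91 ± 0.81 CPM. MDK, which rose in WM164 cells, fell in SKMel28 cells (-1.98, edgeR adjusted p = 0.028), on 13 to 34 counts per library with GFP and 2 to 9 with MAFG. Its log2 fold change in A375 cells was 0.12 (edgeR adjusted p = 0.997). In A375 cells 1 of 17 tested genes passed, higher (median 0.05), and this was PTN, with 0 to 1 counts per library with GFP and 50 to 146 counts with MAFG (edgeR adjusted p = 0.0035).

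**Figure D4:**
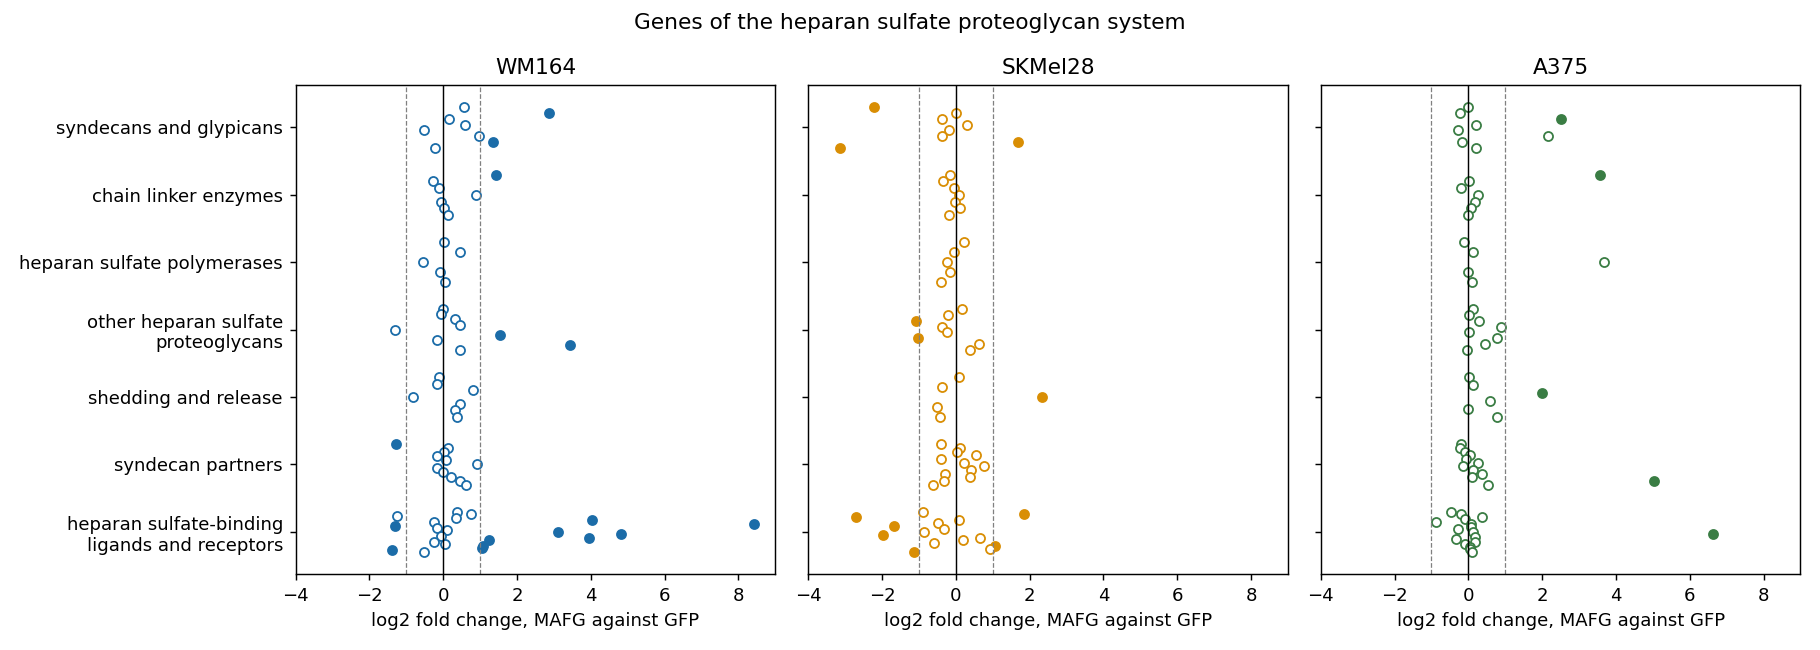
Each point is a tested gene of a list (y axis), at its log2 fold change of MAFG against GFP (x axis) in WM164, SKMel28 and A375 cells, filled where the adjusted p was 0.05 or less and the change above 2-fold (dashed lines). The chain linker enzymes and polymerases lie mostly within the dashed lines, with medians from -0.15 to 0.11. In WM164 cells 8 ligands and receptors are filled above 0, among them HGF and FGFR3 on few counts.

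For the 5 genes changed more than 2-fold in at least 1 line, the genes with the most similar pattern were found by Pearson's r of log2 CPM over the 18 libraries, among 18766 other genes. They were BCAR3, PXN and MAGEA10 for SDC1 (r from 0.989 to 0.993), SOX6, CTTNBP2 and BAMBI for SDC3 (0.995 to 0.996) and TBC1D8, PLEKHS1 and SALL1 for GPC4 (0.967 to 0.971). For SDC2 they were TGFBR2, GTF3C6 and HECW2 (0.883 to 0.929) and for GPC6 GALNT7, PLXNA2 and DSP (0.928 to 0.945). The 18 points come from 3 lines, and libraries of 1 line share their cells, so these values mostly order genes by the level of the lines and carry no test.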

How the data were processed

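The data are RNA sequencing of WM164, SKMel28 and A375 cells with MAFG or GFP, 3 libraries for each condition. The authors trimmed reads with cutadapt 1.8.1, aligned them to GRCh38 with STAR 2.7.7a (versions per the labels' processing notes) and counted reads per gene with featureCounts, and the deposited counts are not normalized. The deposited TPM values are the authors' own, and RSEM 1.3.0 is named in the processing notes without a role. The labels name a kit without strand and the methods one with strand, and the use of strand in counting is not given in the sources used here. All sample columns were mapped, and 0 were left out.

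For each line, MAFG and GFP were compared on the counts of 6 libraries with edgeR 4.0.16 in R 4.3.3 (TMM, filterByExpr, quasi-likelihood F test), and p-values were adjusted by Benjamini-Hochberg over every gene tested. Differential expression required an absolute log2 fold change above 1 with an adjusted p up to 0.05. Differences between lines came from 1 model of all 18 libraries. The standard error is the absolute log2 fold change divided by the square root of F. A nominal 95% interval spans 1.96 standard errors to each side, which is too narrow for so few libraries. For SDC1 in WM164 cells it ran from 0.024 to 1.11, though the unadjusted p was 0.0566 (edgeR). Replicate libraries differed by more than sampling noise in each of 18 pairs (mean chi-square per gene from 5.90 to 96.7). Same-numbered MAFG and GFP libraries did not deviate together (r from -0.0326 to 0.0120), so no replicate block was used. The tests were tested on simulated data.

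The members, the gene lists and the tests were chosen with earlier results of these data known. The genes named are the 10 members, MAFG, MITF and AXL as checks, for each list and line the 3 differentially expressed genes with the smallest adjusted p, and the 3 genes most like each changed member. SOX10 was named by the rule for lists, and TYRP1, S100B, LUM, the keratins, HGF, FGFR3 and EXTL1 after their values were seen. Alternatives were DESeq2 1.42.0, its size factors in edgeR, all genes unfiltered, a minimum of 10 counts in each library, limma 3.58.1 on log2(TPM + 1) or log2(TPM + 0.1), a replicate block, all 18 libraries in 1 model, no fold limit and each library left out. Positions are from GENCODE release 44.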

Additional observations from a re-analysis of the deposited data

Results flagged for a closer look

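The response to MAFG differed between lines, by the edgeR test of the difference itself, for 4 of the 9 tested genes. This held in 8 of their comparisons, given here as differences of log2 fold changes. Between WM164 and SKMel28 cells 3 of the 9 differed, against 5.10% of all tested genes. Between WM164 and A375 cells it was 2 of 9, against 4.39%, and between SKMel28 and A375 cells 3 of 9, against 4.20%. SDC2 responded more in WM164 than in SKMel28 cells (2.86) and than in A375 cells (3.08). SDC1 differed by 2.79 between WM164 and SKMel28 cells and by -2.23 between SKMel28 and A375 cells. Its own log2 fold change passed in SKMel28 cells (-2.22), a fall, but not in WM164 (0.57) or A375 cells (-0.01). GPC6 differed by 2.91 between WM164 and SKMel28 cells and by -3.34 between SKMel28 and A375 cells. SDC3 responded less in WM164 than in A375 cells (-2.37) and less in SKMel28 than in A375 cells (-2.89). The comparisons between lines share libraries.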

How the results depend on the processing

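The 3 counts of members changed more than 2-fold by MAFG were 2 (WM164), 3 (SKMel28) and 1 (A375 cells), and with the replicate block they were 2, 3 and 1, and 3, 2 and 3 for the differences of the response between lines. A replicate block was not run for the comparison of GFP cells between lines, because each replicate number belongs to other cells in each line. Without the fold limit 6 members counted in WM164 cells, where 31.8% of all tested genes did. Between GFP cells of WM164 and SKMel28 it was 8. The share of all genes without the limit was not tallied there, so this count cannot be set against it. In A375 cells the count was 0 on both the log2(TPM + 1) and the log2(TPM + 0.1) scale (limma, with 2 of 7 members at an unadjusted p under 0.05, against 2 of 8 by edgeR and by DESeq2, each with a count of 1), and it was 2 with all 18 libraries in 1 model. On the log2(TPM + 1) scale it was 2 for SKMel28 cells, where GPC4 stayed below 2-fold, 1 for the response of WM164 against A375 cells and 3 for GFP cells of WM164 against SKMel28. With at least 10 counts in every library it was 3 for GFP cells of WM164 against SKMel28 and 3 for SKMel28 against A375.

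Of 804 recomputed values of single members, 762 kept their direction and their side of the threshold, 22 no longer passed, 2 newly passed and 18 turned in direction. With limma on log2(TPM + 1) and on log2(TPM + 0.1), the values that turned were GPC6 in WM164 cells (0.162 and 0.183), SDC2 in SKMel28 cells (-0.200 and -0.217), GPC5 in A375 cells (0.153 and 0.237), the GPC4 response of WM164 against SKMel28 cells (0.443 and 0.139) and GPC6 in GFP cells of WM164 against SKMel28 (-0.334 and -0.373). These scales moved the median of all genes to 0.137 and 0.163 for WM164, to -0.143 and -0.165 for SKMel28 and to -0.103 and -0.119 for A375 cells, and relative to it GPC6 in WM164 cells was at 0.025 and 0.020. SDC1 in A375 cells was at 0.008 with all 18 libraries in 1 model, and with 1 library left out it ran from -0.279 to 0.124 and SDC2 in SKMel28 cells from -0.047 to 0.096. Further calls that hung on 1 library were SDC4 in SKMel28 cells, which passed without the first GFP library (0.403, adjusted p = 0.0296), the SDC3 response of WM164 against SKMel28 cells, which missed without the third WM164 GFP library (0.489, adjusted p = 0.0515), and GPC1 in GFP cells of WM164 against SKMel28, which missed without the first WM164 library (0.345, adjusted p = 0.0772, all edgeR). The SDC1 response of SKMel28 against A375 cells missed on the log2(TPM + 0.1) scale (-1.75, adjusted p = 0.0838, limma). GPC1 in GFP cells of WM164 against SKMel28 also missed on log2(TPM + 1) and log2(TPM + 0.1) (0.143 and 0.153, adjusted p = 0.413 and 0.457, limma). The cause was not tested. The depth limits what can be seen for GPC2, GPC3 and GPC5, and for GPC4 in A375 cells, which had 0 to 58 counts per library.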
